A study of Homo sapiens with 36 samples.

Results

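The genes that build and break down glycogen were followed in Caco-2 and HT-29 cells, 2 human colorectal cancer lines, after treatment with agents that imitate hypoxia. The members were 9 of the 60591 genes in the mRNA count table, taken as the rows whose symbol was UGP2, GYG1, GYS1, GBE1, PYGL, PYGB, PPP1R3B, PPP1R3C or PPP1R3D. Of these, 8 passed the filter on low counts in each line. PPP1R3C did not pass and was not tested.

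The 18 mRNA libraries formed 6 groups of 3 biological replicates. Caco-2 cells had been kept under differentiating conditions for 21 days, whereas the labels give no such step for HT-29, and in any comparison between them the culture state and the cell line cannot be told apart. In each line, 1 group received 300 µM cobalt(II) chloride (CoCl2) for 24 h, 1 group received 5 µM of an oxyquinoline derivative (OD, labelled Oxy) for 24 h, and the control group received 0.5 µl of dimethyl sulfoxide (DMSO) per ml of medium with neither agent. The labels give the same volume of DMSO for OD and water as the solvent of the CoCl2 stock. The study's methods, which describe Caco-2 but not HT-29, give DMSO in the CoCl2 medium as well, at another concentration than the labels. Whether CoCl2 and its controls shared a solvent is therefore unclear. Each line is a single cancer line, not a tissue, and the doses of the agents differ.

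Glycogen is a branched store of glucose. UGP2 makes UDP-glucose, the glycogenins (GYG1 and GYG2) start a new chain, glycogen synthase (GYS1) lengthens it and the branching enzyme (GBE1) adds the branch points. Glycogen phosphorylase (PYGL, the liver form, and PYGB, the brain form) releases glucose 1-phosphate, and the PPP1R3 subunits bring protein phosphatase 1 to glycogen, where it activates the synthase and inactivates phosphorylase. CoCl2 and inhibitors of the HIF prolyl hydroxylases (a class to which oxyquinoline derivatives belong) stabilise hypoxia-inducible factor (HIF), a transcription factor that binds DNA at the core letters ACGTG or GCGTG, and GYS1 and GBE1 are known as hypoxia-responsive genes.

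Total counts per library ranged from 12925719 to 22332639. The known HIF targets SLC2A1, PDK1 and VEGFA were called higher with both agents in Caco-2, and in HT-29 with CoCl2. With OD in HT-29 none of the 3 was called, and PDK1 differed from control by -0.06 on the log2 scale (FDR = 0.462). Epithelial markers were above the floor of 3 counts for 6 of 6 genes in both lines, and their summed level (in CPM, counts per 1000000 on library sizes adjusted with TMM, a trimmed mean of M values) was 4180 to 4330 in Caco-2 controls, 7480 to 8440 under CoCl2 and 5760 to 6160 under OD, against 5220 to 5260, 8100 to 8600 and 6950 to 7640 in HT-29. All 6 enterocyte markers were above the floor in Caco-2, with sums of 2700 to 3090 CPM in controls, 3690 to 4370 under CoCl2 and 2770 to 3020 under OD. APOA1 made up most of these sums, with a control mean of 2550 CPM. SI had a control mean of 289 CPM and ranged from 94.2 to 319 CPM over the Caco-2 libraries. The sums thus do not give the direction of each marker. In HT-29 the enterocyte markers summed to 61.4 to 69.8 CPM over the 3 groups, with ALPI and APOA4 at 0 to 2 counts. Intestinal markers summed to 1470 to 1570 CPM in Caco-2 controls, 1260 to 1420 under CoCl2 and 1820 to 1870 under OD, and in HT-29 to 309 to 321, 99.1 to 108 and 233 to 239. Goblet markers summed to 36.1 to 46.0 CPM in Caco-2 controls, 21.7 to 23.9 under CoCl2 and 26.2 to 29.2 under OD, and in HT-29 to 32.1 to 36.4, 15.4 to 20.8 and 17.9 to 21.5. Both sums were below those of the controls in every CoCl2 library of both lines. These sums, too, do not give the direction of each marker. TFF3 made up most of the goblet sum in Caco-2 controls (mean 40.7 CPM) and MUC2 in HT-29 controls (22.5 CPM). VIL1 and HNF4A made up most of the intestinal sums in controls (796 and 539 CPM in Caco-2, 205 and 86.9 CPM in HT-29). CEACAM5 ranged from 6.91 to 82.4 CPM over the HT-29 libraries, with a control mean of 9.07 CPM. Of the liver markers, ALB lay between 1480 and 2280 CPM in Caco-2 and at 0 to 1 counts in HT-29. CYP3A4, the other liver marker, was at 2 to 14 counts in Caco-2 and 4 to 13 in HT-29. The muscle markers MYH2 and CKM were at 0 to 5 counts in every library. The part of these marker levels in the results below was not tested. Replicate 1 of CoCl2 and replicate 1 of OD in Caco-2 stood apart from their groups: the chi-square of their counts against the other replicates, per degree of freedom, was 8.79 to 12.6, and all other replicate pairs had 1.96 to 6.1. Results that hang on either library are given with and without it. In these bulk samples, fewer cells that express a gene and less RNA per cell cannot be told apart.

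Promoter stretches are shown for GBE1, GYS1 and UGP2, the members called higher in Caco-2 treated with CoCl2, and for PYGL, a highly expressed member that was not called there. They are RefSeq sequences of build GRCh38.p14 from the 250 bases before the first listed start, printed 5′ to 3′ on the strand of the gene, without bases that GENCODE v44 annotates as exons. For UGP2 this left 127 bases, from -144 to -18 relative to the start, and for GYS1 249 bases. Their positions are chr3:81761646-81761895 for GBE1 (minus strand), chr19:48993311-48993559 for GYS1 (minus strand), chr2:63840825-63840951 for UGP2 (plus strand) and chr14:50944484-50944733 for PYGL (minus strand). Capitals mark ACGTG or GCGTG read on either strand, where CACGT and CACGC are the same letters on the other strand and the palindrome CACGTG counts as 1 match.
GBE1: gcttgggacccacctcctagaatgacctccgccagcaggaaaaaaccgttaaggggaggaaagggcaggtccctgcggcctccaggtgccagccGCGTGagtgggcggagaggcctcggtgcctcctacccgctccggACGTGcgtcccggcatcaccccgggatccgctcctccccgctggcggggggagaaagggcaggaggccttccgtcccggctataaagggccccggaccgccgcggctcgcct
GYS1: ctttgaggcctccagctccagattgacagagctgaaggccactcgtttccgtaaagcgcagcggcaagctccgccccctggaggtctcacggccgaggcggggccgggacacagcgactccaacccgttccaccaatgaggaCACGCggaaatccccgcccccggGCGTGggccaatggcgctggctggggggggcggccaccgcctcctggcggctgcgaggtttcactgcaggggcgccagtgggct
UGP2: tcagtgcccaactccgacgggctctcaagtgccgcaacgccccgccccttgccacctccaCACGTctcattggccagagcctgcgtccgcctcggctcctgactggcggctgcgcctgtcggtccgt
PYGL: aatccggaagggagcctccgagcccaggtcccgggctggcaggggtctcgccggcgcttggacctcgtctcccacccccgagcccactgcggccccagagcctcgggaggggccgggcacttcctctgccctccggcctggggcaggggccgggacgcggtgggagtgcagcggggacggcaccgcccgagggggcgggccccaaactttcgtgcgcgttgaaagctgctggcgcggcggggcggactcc

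The stretches of GBE1 and of GYS1 held 2 matches each, that of UGP2 held 1 and that of PYGL held 0. The UGP2 stretch was shorter, at 127 bases, and the full 250 bases before its start held 2 matches. A promoter was found in the table for 8 of the 9 members, and 7 of these had a match within 250 bases of the first listed start, as had 43.2% of all 35116 windows of that length. The window of PPP1R3C, whose transcript was hardly counted in any library, held 3 matches, and that of PYGB held 2. A match describes letters only.

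CoCl2 raised the mRNA of GBE1, GYS1, UGP2 and PPP1R3B in both lines, whereas GYG1 did not pass the test in Caco-2 and fell in HT-29. PYGL also rose in both lines, by less than these, and its direction in HT-29 depended on the scaling. Here and below, a gene was called at an adjusted p (FDR) under 0.05 and an absolute log2 fold change over 1, and rose or fell where its FDR alone was under 0.05. In Caco-2, GBE1, UGP2 and GYS1 were called higher with CoCl2 and no member was called lower. These were 3 of the 8 members tested, where 9.13% of the 16034 genes tested were called higher and 14.2% lower. In HT-29, GBE1 and GYS1 were called higher with CoCl2, 2 of 8 members, against a background of 17.4% higher and 23.9% lower among 15812 genes. OD raised GBE1 alone past the limit in Caco-2, 1 of 8 members (background 4.43% higher and 7.27% lower). In HT-29 no member was called with OD (background 9.5% higher and 7.57% lower), although 7 of 8 had an FDR under 0.05, against 68.8% of all genes. At the FDR alone, 7 of 8 members passed with CoCl2 and 5 with OD in the Caco-2 cells (64.7% and 50.4% of all genes), and 6 of 8 with CoCl2 in HT-29 (82.8%). Treated and control libraries of a gene failed to overlap for 69% (CoCl2) and 59.4% (OD) of all genes in Caco-2, and for 83.2% and 71.1% in HT-29, the shares against which a lack of overlap is to be read below.

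The median log2 fold change of the 8 tested members in Caco-2 was 0.47 for CoCl2 and 0.39 for OD, whereas HT-29 gave 0.45 and 0.26. The medians of all genes tested were -0.03, -0.02, -0.03 and 0.01. Scaling by total counts alone, in place of TMM, moved the median of all genes by -0.32 (CoCl2) and -0.15 (OD) for Caco-2, by -0.63 and -0.14 for HT-29, and turned the members' median with CoCl2 in HT-29 to -0.18. Under that scaling the genes called higher and lower numbered 870 and 3546 in place of 1464 and 2283 for CoCl2 in Caco-2, 500 and 1644 in place of 711 and 1165 for OD in Caco-2, 1295 and 6250 in place of 2749 and 3775 for CoCl2 in HT-29, and 1225 and 1596 in place of 1502 and 1197 for OD in HT-29. Changes are given below relative to the TMM scaling. The plot of fold changes shows the members in the 4 comparisons with control.

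**Figure D1:**
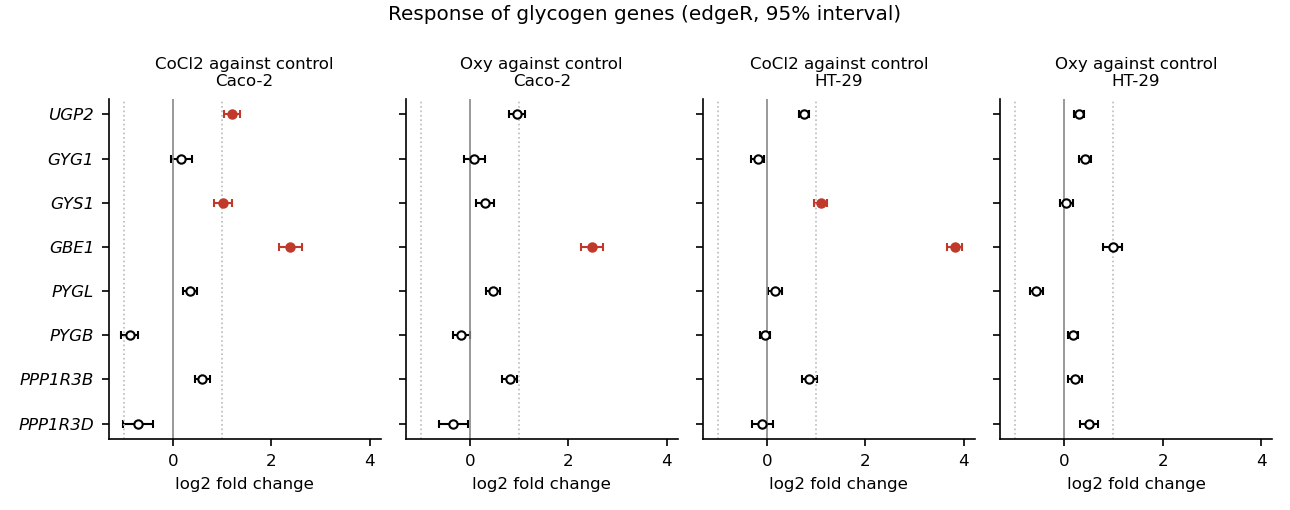
Log2 fold change against control (x axis) of the 8 tested members (y axis), with 95% intervals from edgeR, for CoCl2 and OD (Oxy) in Caco-2 and HT-29. Filled red points were called higher, open points were not called, and dotted lines mark a log2 fold change of 1 in either direction. GBE1 stands farthest to the right in all 4 panels, from 0.98 with OD to 3.82 with CoCl2, both in HT-29.

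GBE1 (chr3:81489703-81761645, minus strand, GENCODE v44) had the largest response of the members. In Caco-2 its level was 8.32, 9.12 and 8.38 CPM in the controls, 39.9, 47.2 and 48.0 CPM with CoCl2 and 49.8, 50.7 and 43.8 CPM with OD. Treated and control libraries did not overlap, and the libraries of the 2 agents overlapped each other. CoCl2 gave a log2 fold change of 2.39 (SE 0.11, FDR = 2.93e-15) and OD one of 2.48 (SE 0.11, FDR = 4e-15). In HT-29 the controls held 7.36, 8.64 and 7.58 CPM, the CoCl2 libraries 108, 110 and 115 CPM and the OD libraries 17.7, 14.7 and 14.2 CPM. The 3 groups of HT-29 were fully separated, with OD far closer to the control than to CoCl2. CoCl2 raised GBE1 14.1-fold in HT-29, a log2 fold change of 3.82 (SE 0.08, FDR = 6.2e-25). With OD the log2 fold change in HT-29 was 0.98 (SE 0.09, FDR = 5.07e-10), just under the limit, and it was 1.05, 1.03 and 1.05 without control replicate 2, OD replicate 2 or OD replicate 3 of HT-29.

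GYS1 (chr19:48968130-48993310, minus strand), the synthase form of most tissues outside the liver, rose with CoCl2 in both lines. In Caco-2 it was measured at 75.7, 73.0 and 69.3 CPM in the controls, 167, 143 and 133 CPM with CoCl2 and 81.3, 93.2 and 95.3 CPM with OD. In HT-29 the values were 77.4, 68.0 and 60.3 CPM in the controls, 152, 136 and 148 CPM with CoCl2 and 72.9, 69.5 and 68.5 CPM with OD. Every CoCl2 library lay above every control of its line, and the OD libraries of HT-29 lay within the range of their controls. The log2 fold change with CoCl2 was 1.02 (SE 0.09, FDR = 3.45e-10) in Caco-2 and 1.09 (SE 0.07, FDR = 1.66e-14) in HT-29. OD raised GYS1 by 0.31 (SE 0.09, FDR = 0.00552) in Caco-2, or 0.155 (FDR = 0.173) with scaling by total counts. Its estimate for HT-29 was 0.05 (SE 0.07, FDR = 0.567), which became -0.09 with scaling by total counts and -0.05 without control replicate 3. The CoCl2 calls were near the limit. In Caco-2 the value fell to 0.93 without CoCl2 replicate 1, 0.99 without control replicate 3, 0.94 on the deposited log2 values and 0.70 with scaling by total counts. In HT-29 it was 0.998, just under the limit, without control replicate 3, 0.98 with both lines in 1 fit, 0.96 on the deposited log2 values and 0.46 with scaling by total counts.

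UGP2 (chr2:63840952-63891562, plus strand), which makes the UDP-glucose that the synthase uses, was higher than control with each agent in each line. In Caco-2 its level was 157, 158 and 164 CPM in the controls, 324, 389 and 389 CPM with CoCl2 and 334, 316 and 282 CPM with OD. In HT-29 the controls held 111, 104 and 108 CPM, the CoCl2 libraries 173, 186 and 181 CPM and the OD libraries 136, 127 and 133 CPM. No treated library overlapped its controls, and in HT-29 the OD libraries lay between the other groups. The log2 fold change was 1.20 (SE 0.08, FDR = 5.21e-12) with CoCl2 and 0.96 (SE 0.08, FDR = 8.82e-10) with OD in Caco-2, the latter under the limit but 1.03 without OD replicate 3. In HT-29 it was 0.75 (SE 0.05, FDR = 1.2e-13) with CoCl2 and 0.30 (SE 0.05, FDR = 5.63e-06) with OD, neither past the limit. With scaling by total counts the CoCl2 value in Caco-2 was 0.88, under the limit, and the HT-29 values were 0.11 with CoCl2 and 0.16 with OD.

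GYG1 (chr3:148991408-149031775, plus strand), the glycogenin of muscle and many other tissues, stayed under the fold limit in all 4 comparisons with control. In Caco-2 it was at 18.43 ± 1.076 CPM (SD, n = 3) in its controls, 20.8 ± 1.26 under CoCl2 and 19.6 ± 0.257 under OD, and treated and control libraries overlapped. Neither agent gave an FDR under 0.05 there (0.147 and 0.492), and with scaling by total counts both estimates, 0.18 and 0.09, changed sign to -0.15 and -0.06. HT-29 held 36.8 ± 2.82 CPM in controls, 32.4 ± 0.890 under CoCl2 and 49.5 ± 1.83 under OD. OD raised GYG1 in HT-29 by 0.42 (SE 0.06, FDR = 6.45e-07) and it fell by 0.19 with CoCl2 (SE 0.06, FDR = 0.00848), both under the fold limit and without overlap between groups. Scaling by total counts gave -0.83 (FDR = 3.51e-12) for CoCl2 in HT-29.

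**Figure D2:**
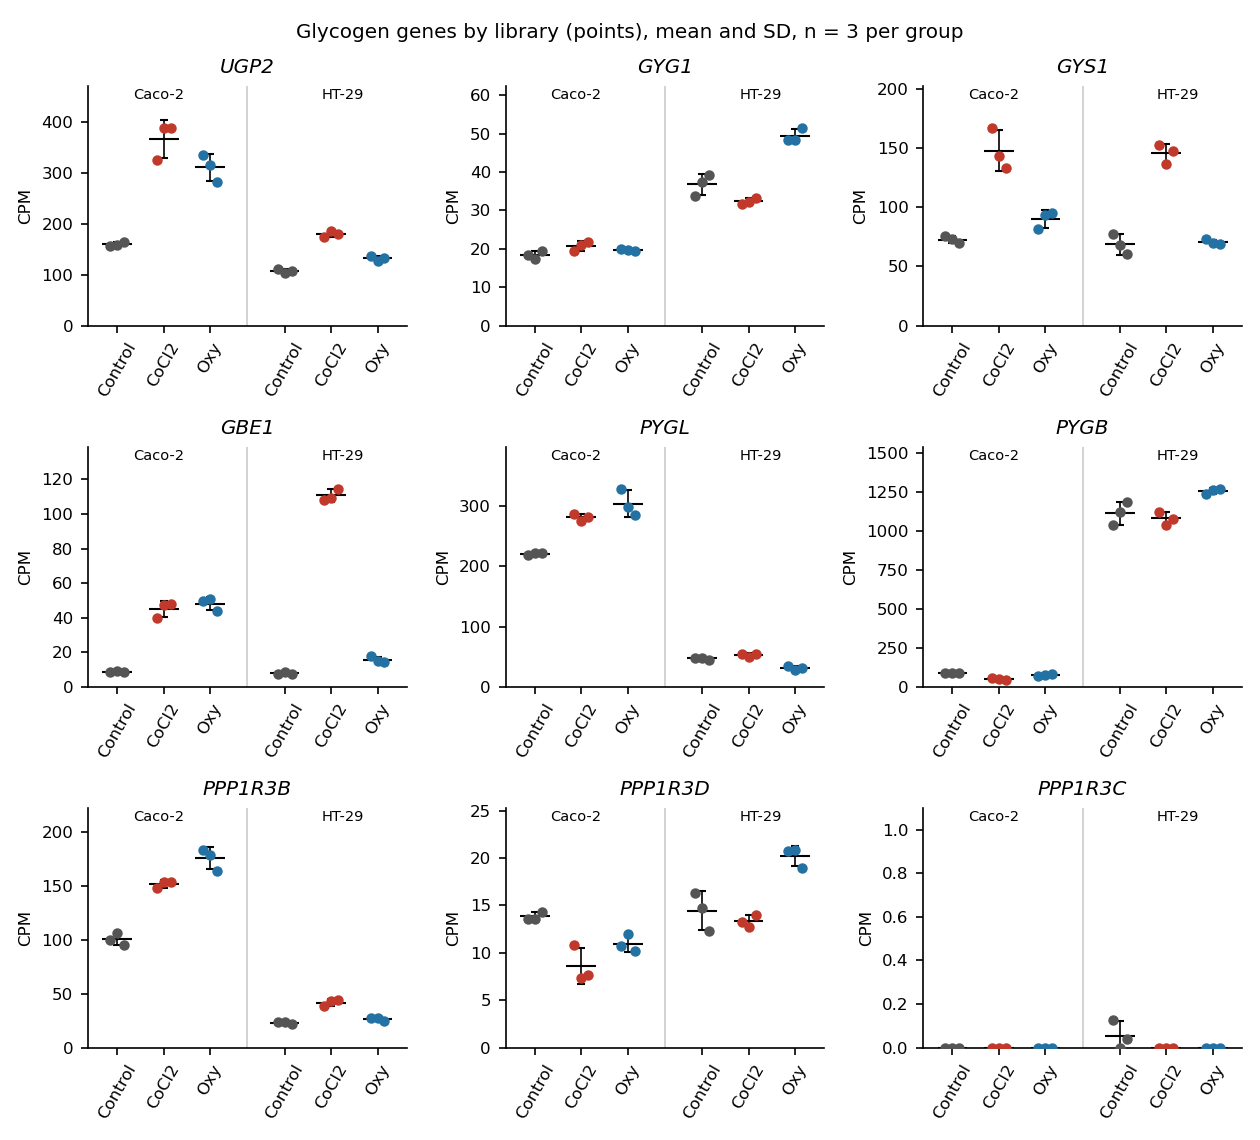
Level of each member in CPM (y axis, linear from 0, a scale of its own per panel) in the 18 mRNA libraries, by line and treatment (x axis). Points are libraries, horizontal lines are group means and bars are SD of 3 replicates. GBE1 rises in both lines, PYGB is at 1036 CPM or more in all HT-29 libraries and at 88.6 CPM or less in all Caco-2 libraries, and PPP1R3C lies at or near 0 everywhere.

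Among the phosphatase subunits, PPP1R3B (chr8:9136255-9151574, minus strand), the form best known from liver, rose with both agents in both lines. Its level in Caco-2 was 100.0, 106 and 95.8 CPM in controls, 148, 154 and 154 CPM under CoCl2 and 184, 179 and 165 CPM under OD. In HT-29 the values were 24.1, 23.6 and 21.6 CPM in controls, 38.2, 42.94 and 43.95 CPM with CoCl2 and 27.3, 28.0 and 25.1 CPM with OD. All treated libraries lay above their controls, most of all with OD for Caco-2 and with CoCl2 for HT-29. The log2 fold changes with CoCl2 were 0.60 (SE 0.07, FDR = 1.54e-07) for Caco-2 and 0.86 (SE 0.07, FDR = 1.23e-11) for HT-29. With OD they were 0.81 (SE 0.07, FDR = 2.76e-09) in Caco-2 and 0.22 (SE 0.07, FDR = 0.00799) in HT-29. None passed the fold limit. The rise with OD in HT-29 was lost with DESeq2 (0.20, FDR = 0.0644) and with scaling by total counts (0.085, FDR = 0.299), and the latter scaling gave 0.28 and 0.23 with CoCl2 in Caco-2 and HT-29.

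PPP1R3D (chr20:59936663-59940305, minus strand), a more widely expressed subunit, fell with CoCl2 in Caco-2. It was at 13.9 ± 0.412 CPM in controls, 8.599 ± 1.939 under CoCl2 and 11.0 ± 0.911 under OD, a log2 fold change of -0.70 (SE 0.15, FDR = 0.00018) with CoCl2 and of -0.34 (SE 0.14, FDR = 0.0502) with OD, the latter not past the FDR limit. In HT-29, controls held 14.4 ± 2.04 CPM, CoCl2 13.3 ± 0.636 and OD 20.2 ± 1.04, and only the OD comparison had an FDR under 0.05 (0.51, SE 0.09, FDR = 1.92e-05). With scaling by total counts the CoCl2 value in Caco-2 became -1.02 and passed the fold limit, that of OD in Caco-2 was -0.49 (FDR = 0.00703), and with CoCl2 in HT-29 PPP1R3D was lower, at -0.73 (FDR = 2.46e-07). PPP1R3C (chr10:91628442-91633071, minus strand), the subunit also called PTG, had 0 counts in all 9 Caco-2 libraries and in the 6 treated HT-29 libraries, and 2, 0 and 1 counts in the HT-29 controls. At these depths a count of 0 allows up to 3 counts, counting error only. Per 1000000 total counts of a library, without the TMM adjustment, that is 0.134 to 0.232.

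The phosphorylase that prevailed differed between the lines. PYGL (chr14:50857891-50944483, minus strand) stood in Caco-2 at 219, 222 and 222 CPM in controls, 287, 275 and 283 CPM under CoCl2 and 329, 298 and 286 CPM under OD. In HT-29 its values were 48.0, 48.5 and 44.6 CPM in controls, 53.8, 49.0 and 54.5 CPM with CoCl2 and 34.7, 28.4 and 31.6 CPM with OD. Treated Caco-2 libraries were all above their controls, and OD-treated HT-29 libraries were all below theirs. PYGL rose in Caco-2 by 0.35 (SE 0.07, FDR = 0.000142) with CoCl2 and 0.46 (SE 0.07, FDR = 7.77e-06) with OD. Under scaling by total counts the CoCl2 rise was lost (0.030, FDR = 0.683) and the OD value was 0.31. With OD in HT-29 it fell by 0.57 (SE 0.07, FDR = 2.47e-08). The CoCl2 estimate in HT-29 was 0.16 (SE 0.07, FDR = 0.0263, or 0.108 with DESeq2), and it turned to -0.47 (FDR = 1.38e-07) with scaling by total counts, so that its direction depended on the scaling. None of these passed the fold limit.

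PYGB (chr20:25248085-25298012, plus strand) was at 84.9, 88.6 and 87.9 CPM in Caco-2 controls, 52.7, 46.5 and 43.7 CPM with CoCl2 and 71.0, 77.3 and 82.6 CPM with OD. HT-29 held 1036, 1121 and 1183 CPM in controls, 1120, 1040 and 1079 CPM under CoCl2 and 1235, 1264 and 1271 CPM under OD. CoCl2 thus lowered PYGB in Caco-2 without overlap, while in HT-29 the CoCl2 libraries lay among the controls. The log2 fold change in Caco-2 was -0.88 (SE 0.09, FDR = 3.13e-09) with CoCl2, or -1.20 and past the fold limit with scaling by total counts, and -0.18 (SE 0.08, FDR = 0.0749) with OD. In HT-29 it was -0.04 (SE 0.05, FDR = 0.377) with CoCl2 and 0.17 (SE 0.05, FDR = 0.00179) with OD. The HT-29 values became -0.68 (FDR = 1.14e-13) and 0.038 (FDR = 0.459) with scaling by total counts, which gave -0.33 (FDR = 0.00339) for OD in Caco-2. Named genes on the opposite strand overlap GYG1 (HLTF), PYGL (ABHD12B), PYGB (ABHD12), PPP1R3D (FAM217B) and GBE1 (RNU2-28P). Genes with no symbol overlap GBE1, UGP2, PPP1R3B, PYGL and PYGB on the opposite strand. GBE1 alone of the members also overlaps a gene on its own strand, SETP6, which strand cannot separate from it. The use of strand in counting is not given in the sources used here, so reads of these genes may not have been told apart.

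The balance of the phosphorylases was compared per exon length of the gene within each library, which does not depend on the scaling between libraries. PYGB made up 28.4, 29.0 and 28.8% of the RPKM (CPM per kilobase of that length) of PYGB and PYGL together in Caco-2 controls, 15.8, 14.7 and 13.6% with CoCl2 and 18.02, 20.9 and 22.8% with OD. In HT-29 it made up 95.7, 95.9 and 96.4% in controls, 95.5, 95.6 and 95.3% with CoCl2 and 97.3, 97.8 and 97.6% with OD. In each of the 4 comparisons the treated libraries lay wholly on one side of the controls. The mean share differed from that of the controls by -14.0 points with CoCl2 and -8.14 points with OD in Caco-2, and by -0.552 and 1.59 points in HT-29. The exact two-sided permutation test gave p = 0.1 for each, the smallest p that 3 against 3 libraries can give, and 0.1 after adjustment over the 4, so that none could reach 0.05.

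The other isoform pair was singled out after its values were seen and is given with no test. GYG2, the glycogenin best known from liver, made up 86.7% ± 0.647 (SD, n = 3) of the RPKM of GYG2 and GYG1 in Caco-2 controls, 70.1% ± 1.37 under CoCl2 and 78.5% ± 1.21 under OD. The HT-29 shares were 9.30% ± 1.17, 3.85% ± 0.542 and 4.93% ± 0.882, at 7 to 44 counts of GYG2 per library. The remaining tissue isoforms were at or near 0 in both lines. GYS2, the liver synthase, had 0 to 5 counts in Caco-2 but 0 in HT-29, PYGM, the muscle phosphorylase, had 1 to 19 and 0 to 11 counts, and PPP1R3A, the muscle subunit, had 0 in all 18 libraries.

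**Figure D3:**
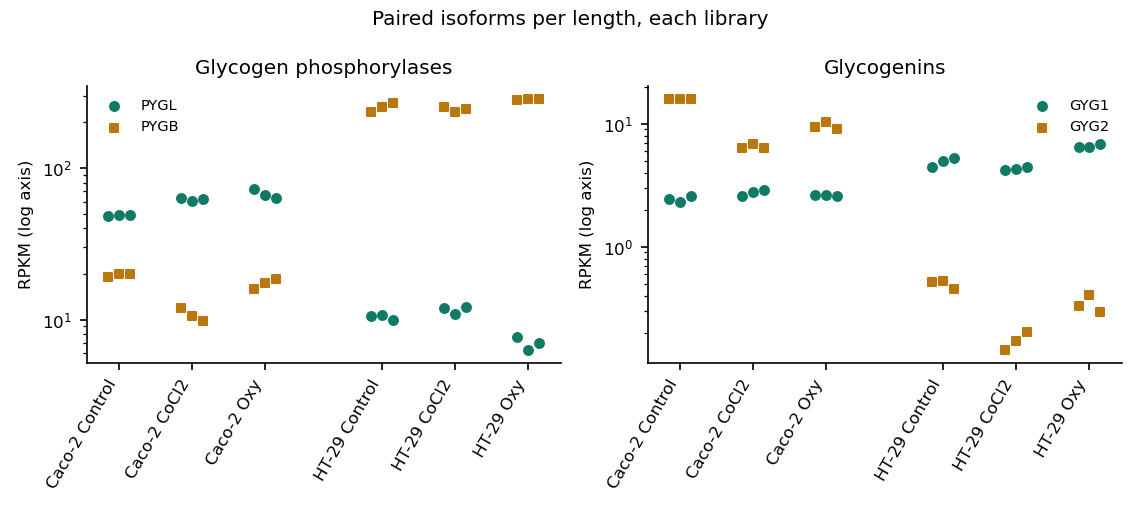
RPKM (y axis, log scale) of the phosphorylases PYGL and PYGB and of the glycogenins GYG1 and GYG2 in each of the 18 libraries, by line and treatment (x axis), 3 points per gene and group. In Caco-2 PYGL lies above PYGB and GYG2 above GYG1. In HT-29 both orders are the reverse.

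In the untreated lines the levels were ordered per length, in RPKM from TMM scaling within each line. The order depends on the exon lengths used, which are not transcript lengths. In Caco-2 controls, PYGL came first at 48.8 ± 0.408 RPKM (SD, n = 3), followed by UGP2 at 24.7 ± 0.578, PYGB at 19.7 ± 0.449, PPP1R3B at 17.6 ± 0.913, GYS1 at 17.2 ± 0.758, PPP1R3D at 3.82 ± 0.114, GYG1 at 2.45 ± 0.143 and GBE1 at 1.86 ± 0.0964. Of these neighbours, PPP1R3B and GYS1 did not differ beyond their spread. HT-29 controls were dominated by PYGB at 251 ± 16.7 RPKM. UGP2 followed at 16.6 ± 0.508, GYS1 at 16.3 ± 2.03, PYGL at 10.4 ± 0.463, GYG1 at 4.89 ± 0.375, PPP1R3B at 4.05 ± 0.227, PPP1R3D at 3.98 ± 0.563 and GBE1 at 1.70 ± 0.148. There, UGP2 and GYS1 overlapped, as did PPP1R3B and PPP1R3D. The lowest of the 8 tested members in both untreated lines was thus GBE1, which reached 23.9 ± 0.761 RPKM in HT-29 with CoCl2.

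Untreated HT-29 was compared with untreated Caco-2 in 1 fit over all 18 libraries. PYGB was 13.6-fold higher in HT-29 (log2 3.77, SE 0.07, FDR = 1.66e-30) and GYG1 2.13-fold higher (1.09, SE 0.08, FDR = 3.32e-14). PYGL was lower in HT-29, with a log2 difference of -2.14 (SE 0.07, FDR = 3.04e-24), as was PPP1R3B with -2.04 (SE 0.07, FDR = 3.59e-23). These were 2 of 8 members called higher and 2 lower, while 21.6% of 17921 genes were called higher and 24.2% lower, 79.1% passed the FDR alone and 81.5% did not overlap. UGP2 was lower but under the limit, at -0.48 (SE 0.07, FDR = 1.54e-07). GYS1, GBE1 and PPP1R3D showed no difference past the FDR limit, with 95% intervals of -0.17 to 0.17, -0.28 to 0.20 and -0.10 to 0.37.

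CoCl2 and OD were then compared with each other at their single doses of 300 and 5 µM, which differ. No member was called in Caco-2, where 5.21% of genes were called higher with CoCl2 and 6.44% lower, and 5 of 8 members had an FDR under 0.05 against 49.6% of all genes (52.8% did not overlap). There GYS1 was higher with CoCl2 than with OD by 0.71 (SE 0.09, FDR = 2.91e-07) and PYGB was lower, at -0.70 (SE 0.09, FDR = 3.36e-07). GBE1 did not differ past the FDR limit, with an estimate of -0.09 and a 95% interval of -0.29 to 0.10 (FDR = 0.435), although scaling by total counts gave -0.26 (FDR = 0.0267). In HT-29, GBE1 was 7.11-fold higher with CoCl2 than with OD (log2 2.83, SE 0.07, FDR = 1.12e-22) and GYS1 2.07-fold higher (1.05, SE 0.07, FDR = 6.69e-14), 2 of 8 members called higher against 10.8% of all genes (19.2% were called lower). The GYS1 difference was 0.95 with both lines in 1 fit, 0.94 on the deposited log2 values, 0.99 without the filter on low counts and 0.55 with scaling by total counts. All 8 members had an FDR under 0.05 in that comparison, as had 77.7% of all genes, and 78.9% did not overlap. PYGL was 0.73 higher with CoCl2, PPP1R3B 0.64 and UGP2 0.45 (FDR at most 4.82e-09), the last turning to -0.05 with scaling by total counts, while the differences for GYG1, PPP1R3D and PYGB were -0.61, -0.60 and -0.22 (FDR at most 0.000144). Scaling by total counts gave -1.11, -1.10 and -0.72 for these, with GYG1 and PPP1R3D then called lower, 0.23 for PYGL and 0.14 (FDR = 0.0669) for PPP1R3B. With scaling by total counts, the genes called higher and lower numbered 602 and 1524 for Caco-2 (835 and 1033 with TMM) and 783 and 5279 for HT-29 (1702 and 3032).

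Whether the lines answered differently was tested as an interaction, the response of HT-29 less that of Caco-2. For CoCl2, GBE1 was the 1 member of 8 called, with a response larger in HT-29 by 1.31 (SE 0.14, FDR = 2.24e-09), where 7.79% of all genes were called higher and 13.8% lower. At the FDR alone 6 of 8 members and 49.8% of genes passed. UGP2 responded less in HT-29, with a difference of -0.56 (SE 0.10, FDR = 1.03e-05) and PYGB was 0.73 higher (SE 0.10, FDR = 1.83e-07), both under the limit. The GYS1 responses to CoCl2 differed by -0.04, with a 95% interval of -0.27 to 0.20 (FDR = 0.829). For OD the response in HT-29 was smaller for GBE1, with a difference of -1.52 (SE 0.15, FDR = 3.26e-10) and lower for PYGL, with one of -1.05 (SE 0.10, FDR = 1.15e-10), 2 of 8 members called lower against 6.24% of genes (8.96% were called higher), and 7 of 8 passed the FDR alone against 42.9% of genes. The PYGL difference no longer passed the fold limit without OD replicate 1 of Caco-2 and was -0.98 without OD replicate 2 of HT-29. Below the limit, OD gave differences of 0.82 for PPP1R3D (FDR = 0.000118), -0.68 for UGP2 (FDR = 6.98e-07) and -0.60 for PPP1R3B (FDR = 8.5e-06). In the CoCl2 interaction, scaling by total counts gave 1005 genes called higher and 3319 lower in place of 1396 and 2479.

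The genes whose levels ran most alike to each member over the 18 libraries were found by Pearson's r of log2(CPM + 1), from which the mean of each line had been taken, among 10435 genes. The libraries share treatments and scaling, so these values only describe. For GBE1 they were PLOD2 (r = 0.995), HK2 (0.992) and ACBD5 (0.992). CABIN1 was nearest to GYS1 (0.983), EPCAM to UGP2 (0.978), IL18BP to PPP1R3B (0.978) and STAT6 to PYGB (0.959). CDC73 was nearest to PYGL (0.953), TNNT1 to GYG1 (0.930) and TMEM187 to PPP1R3D (0.925). Among the members themselves, GBE1 ran closest with PPP1R3B (0.966) and UGP2 with PPP1R3B (0.886) and GBE1 (0.883).

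The other genes of glycogen turnover moved in both directions. Of 9 tested in Caco-2, CoCl2 gave 2 called higher and 3 lower, and OD 1 and 1. In HT-29, CoCl2 gave 1 of 8 called higher and 3 lower, and OD 1 and 1. Of all genes in Caco-2, 9.13% were called higher and 14.2% lower with CoCl2, and 4.43% and 7.27% with OD. The shares in HT-29 were 17.4% and 23.9% with CoCl2, and 9.5% and 7.57% with OD. The list's median with CoCl2 was -0.73 for Caco-2 and -0.42 for HT-29, and scaling by total counts made it -1.05 and -1.05. PGM1, which interconverts glucose 1-phosphate and glucose 6-phosphate, rose with CoCl2 by 1.34 (SE 0.08, FDR = 2.07e-13) in Caco-2 and 1.93 (SE 0.06, FDR = 2.48e-21) in HT-29. GYG2, the other glycogenin, fell in both, with log2 fold changes of -1.30 (SE 0.09, FDR = 5.35e-12) for Caco-2 and -1.51 (SE 0.29, FDR = 3.03e-05) for HT-29.

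With OD, PGM1 was higher by 0.89 (Caco-2) and 0.76 (HT-29), both under the fold limit. NHLRC1, which encodes malin, a ubiquitin ligase linked to Lafora disease, was called lower in all 4 comparisons, from -1.54 to -2.59, at 1 to 61 counts per library. PPP1R3F was called lower with CoCl2 in Caco-2 (-1.61, at 0 to 21 counts in these groups, not called by DESeq2) and HT-29 (-1.23). STBD1, a glycogen-binding protein, was called higher in Caco-2 with CoCl2 (1.32) and OD (1.05), and PPP1R3E in HT-29 with OD (1.06). Both OD calls were lost with scaling by total counts (0.90 and 0.93). PPP1R3E fell outside the rule for named genes and was named after its values were seen.

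The catalytic and regulatory subunits of phosphorylase kinase, which switches phosphorylase on, were called higher or not called. With CoCl2 the called numbered 1 of 5 for Caco-2 and 3 of 5 for HT-29, and with OD 0 and 2. Of all genes, 9.13% (Caco-2) and 17.4% (HT-29) were called higher with CoCl2, and 4.43% and 9.5% with OD. At the FDR alone, 3 rose and 1 fell with CoCl2 in Caco-2, and 4 rose and 0 fell in HT-29. With OD, 1 rose and 1 fell in Caco-2, and 3 rose and 1 fell in HT-29. The FDR alone was passed by 64.7% and 82.8% of all genes with CoCl2, and by 50.4% and 68.8% with OD. PHKG2 rose in HT-29 with CoCl2 by 2.00 (SE 0.06, FDR = 9.36e-21), and its response there was larger than in Caco-2 by 1.39 (FDR = 4.71e-13). PHKB rose by 1.22 (SE 0.05, FDR = 2.43e-18), which became 0.59 with scaling by total counts. PHKG1 rose with CoCl2 in both lines and, in HT-29, with OD (1.73, 2.09 and 1.88), at 3 to 42 counts per library, and PHKA1 with OD in HT-29 (1.03, or 0.90 and not called with scaling by total counts).

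Kinases and phosphatases that act on glycogen synthase were mostly under the fold limit, as were most genes tested. Of all genes, 9.13% (Caco-2) and 17.4% (HT-29) were called higher with CoCl2, and 4.43% and 9.5% with OD. Those called lower were 14.2% and 23.9% with CoCl2, and 7.27% and 7.57% with OD. In this list, 1 of 13 was called higher with CoCl2 for Caco-2 and 1 of 12 for HT-29. With OD these were 1 and 0, with none lower in any of the 4. The called genes were PRKAB2, a subunit of AMP-activated kinase, with CoCl2 in Caco-2 (1.01), PRKAA2, its catalytic subunit, with OD in Caco-2 (1.02), and GSK3B, glycogen synthase kinase 3 beta, with CoCl2 in HT-29 (1.07). With scaling by total counts these were 0.68, 0.87 and 0.44, none called, and 3 of the 12 in HT-29 were called lower with CoCl2. PRKAA2 was at 0 to 6 counts in HT-29 and was not tested there.

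**Figure D4:**
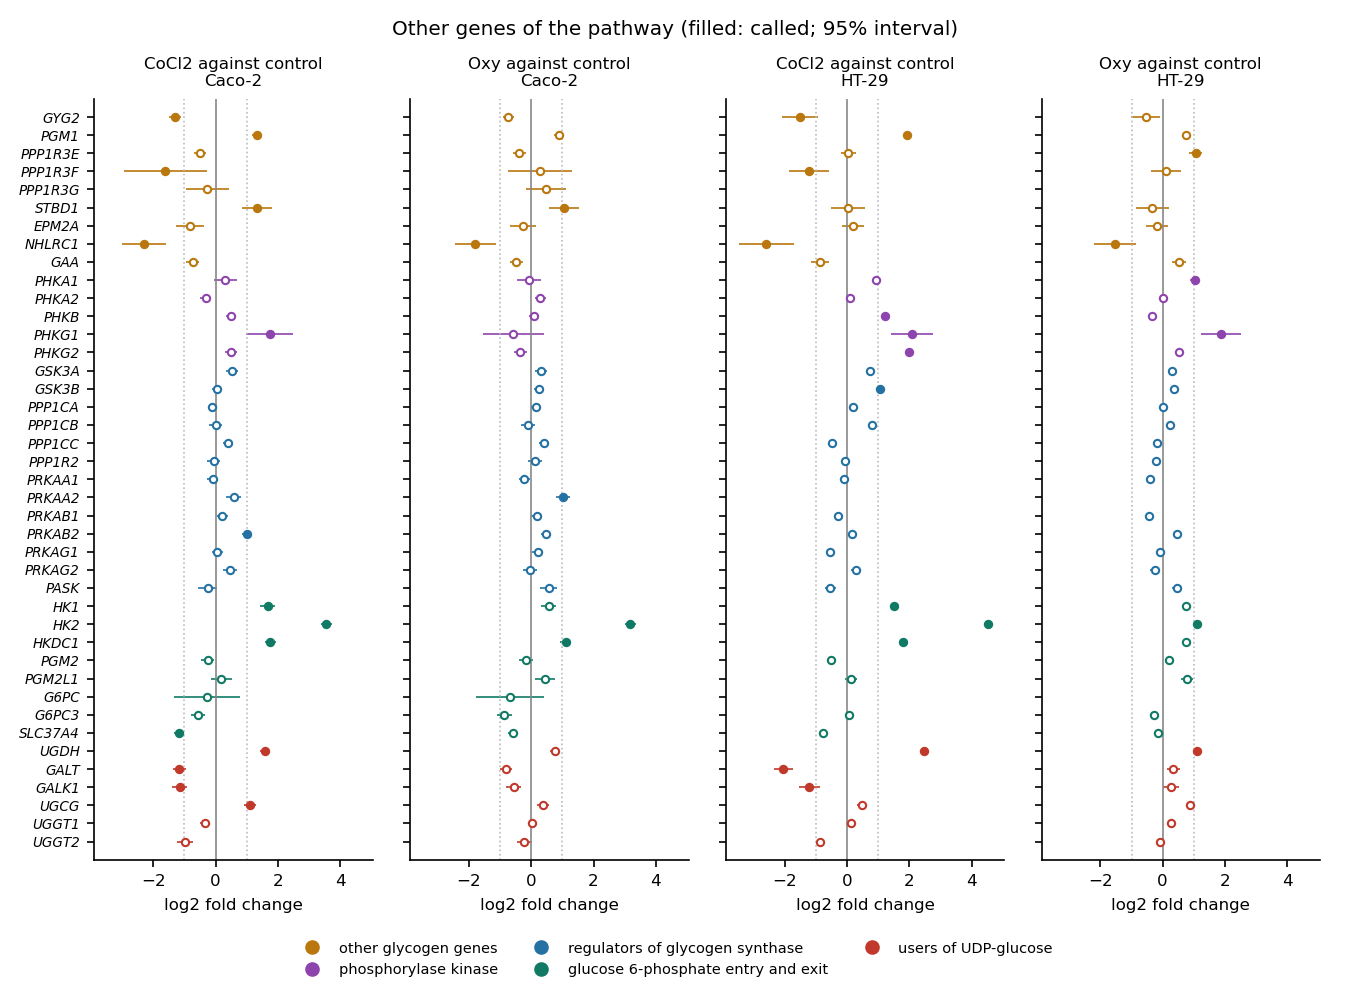
Log2 fold change against control (x axis, with 95% intervals from edgeR) of the other pathway genes that were tested in at least 1 line (y axis), coloured by list, in the 4 comparisons with control. Filled points were called and dotted lines mark a log2 fold change of 1 in either direction. HK2 has the largest change with CoCl2 in both lines, and GYG2 is called lower with CoCl2 in both.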

How the data were processed

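Raw counts of reads per gene and a table of log2 values were deposited by the authors for 18 mRNA libraries. Per the labels and the study's methods, single-end reads were trimmed with cutadapt 2.10 and aligned with STAR 2.7.5b to GRCh38.p13 with a GENCODE annotation. The counting tool and its use of strand are not given in the sources used here. The deposited log2 values were found to hold log2(RPKM + 1): after a library factor of 0.974 to 1.04, the gene lengths recovered from them agreed between libraries within 1% for 13345 of 13609 genes. RPKM here is CPM divided by that length. The lengths lay near the union of all annotated exons of a gene, 7.512 against 7.551 kb for GYG1 and 6.467 against 6.791 kb for UGP2. They are not transcript lengths, so RPKM understates a gene whose transcripts are shorter than that union. Orders and shares in RPKM depend on this. Members were not read from the 18 miRNA libraries, which were not used here.

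Each line was fitted alone over its 9 libraries with edgeR 4.0.16 in R 4.3.3 (TMM, filterByExpr, quasi-likelihood F test, two-sided). Interactions and the untreated lines were fitted over all 18. The Benjamini-Hochberg adjustment ran over all genes tested (FDR), and a gene was called at an FDR under 0.05 and an absolute log2 fold change over 1. CPM are on TMM-scaled library sizes per line, as mean ± SD of 3 replicates. The phosphorylase share was compared by an exact permutation test. The median SE of a log2 fold change against control was 0.127 (CoCl2) and 0.126 (OD) for Caco-2, 0.0927 and 0.0855 for HT-29. On simulated counts for CoCl2 against control in each line, 50 genes each were given log2 changes of 2, -2, 1.5 and -1.5. Of these, 100% were recovered, and at most 0.0128% of unchanged genes were called. Changes near the fold limit of 1 were not tested, nor were changes in as many genes as were called in the data. An excess of changes in 1 direction was not tested either. The changed genes were drawn only from genes above a minimum mean count, so changes at low counts were not covered. All genes were given the same spread between replicates. The figures are thus not error rates for the calls given here.

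The members and lists were chosen with earlier results of these data known. Of the listed pathway genes (46, all in the table, with some listed genes not reported here), those called in at least 1 of the 4 comparisons with control are named, at most 5 per list by largest change, with the tissue isoforms for their levels. Markers of epithelial, intestinal, enterocyte, goblet, leukocyte, endothelial, fibroblast, liver and muscle cells were summed per library. In controls, CoCl2 and OD, fibroblast markers summed to 32.7 to 34.7, 26.7 to 29.4 and 21.7 to 26.3 CPM in Caco-2 and to 1.28 to 1.48, 2.17 to 2.63 and 5.07 to 6.23 in HT-29, endothelial markers to 8.24 to 12.4, 2.06 to 2.69 and 5.4 to 6.32 in Caco-2 and to 1.39 to 2.32, 0.299 to 0.576 and 1.05 to 1.24 in HT-29, and leukocyte markers stayed under 1 CPM. Alternatives were DESeq2 1.42.0, scaling by total counts, no filter, the FDR alone, limma-trend (limma 3.58.1) on the log2 values, the replicate number as a block, 1 fit for both lines, and each library left out. The scaling alternatives for the other pathway genes were chosen after seeing the data. Gene positions were taken from GENCODE v44 (GRCh38).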

Additional observations from a re-analysis of the deposited data

Results flagged for a closer look

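The response of GBE1 to CoCl2 was larger in HT-29 than in Caco-2 by 1.31 on the log2 scale (SE 0.14, FDR = 2.24e-09), and its response to OD was smaller in HT-29, with a difference of -1.52 (SE 0.15, FDR = 3.26e-10). Both were picked out because the interaction between line and treatment passed the limits for a call. The response of PYGL to OD differed by -1.05 (SE 0.10, FDR = 1.15e-10) in the same test, with an estimate of 0.46 in Caco-2 and of -0.57 in HT-29. Culture state differed together with the line, so the 2 cannot be told apart.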

How the results depend on the processing

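At the FDR limit alone, with no limit on fold, the members called numbered 7, 5 and 5 for Caco-2 (CoCl2 and OD against control, and CoCl2 against OD), 6, 7 and 8 for HT-29, and 6 and 7 in the interactions for CoCl2 and OD. All genes called then numbered 10370, 8084, 7957, 13097, 10876, 12286, 8916 and 7682, and 14175 between the untreated lines, in place of 3747, 1876, 1868, 6524, 2699, 4734, 3875, 2724 and 8202. limma-trend on the deposited log2 values called 1098, 381, 341, 2520, 744 and 1455 genes in the 6 comparisons within a line. For CoCl2 against control in HT-29, 1 member was called with scaling by total counts, limma-trend and both lines in 1 fit, and for CoCl2 against OD in HT-29, 1 without the filter, with limma-trend and with both lines in 1 fit. Leaving out 1 library each gave 2 to 3 members for CoCl2 in Caco-2, 1 to 2 members for CoCl2 in HT-29, 1 to 2 for OD in Caco-2, 0 to 1 for OD in HT-29 and 1 to 2 for the OD interaction. Why these counts moved was not tested, apart from the fold limit itself.

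Changes of sign came mostly from values near 0. Scaling by total counts gave -0.145, -0.062 and -0.082 for GYG1 in Caco-2 (CoCl2, OD, CoCl2 against OD), -0.473 for PYGL with CoCl2, -0.092 for GYS1 with OD and -0.051 for UGP2 between the agents in HT-29, -0.052 for PPP1R3B in the CoCl2 interaction and 0.008 for GYS1 between untreated lines. GYS1 also changed sign in the CoCl2 interaction with DESeq2 (0.062) and between untreated lines without the filter (0.022). Leaving out 1 library each, GYS1 ranged from -0.049 (without control replicate 3) to 0.134 with OD in HT-29, from -0.124 to 0.060 in the CoCl2 interaction and from -0.079 to 0.088 between untreated lines, where GBE1 ranged from -0.100 to 0.010. Of 984 values of single members under an alternative, 900 kept direction and call, 49 passed and 15 lost the limits and 20 changed sign. These include the FDR alone, which reuses the main estimates and so could not change a sign or lose a call. Most of the 49 came from that setting and passed because the fold limit was dropped. The 28 alternative values of the PYGB share stayed within the replicate spread, but this was fixed in advance. Leaving out 1 library cannot move a group mean by more than the SD of its replicates. The deposited values are those from which the gene lengths in the share were recovered. These values are therefore no check on the share.

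The replicate numbers did not pair the samples: same-numbered libraries had correlations of -0.06 to 0.07, and 3 of 9 libraries in Caco-2 and 2 of 9 in HT-29 correlated best with their own number. With the replicate number as a block, 3, 1 and 0 members were called in Caco-2, with 2, 0 and 2 in HT-29, the same counts as without it, and 1891 (Caco-2) and 2700 (HT-29) genes in all with OD. The other totals with the block were 3737 and 6520 for CoCl2 against control, 1842 and 4726 between the agents, 3805 and 2673 in the interactions and 8219 between untreated lines. No single member changed its call or direction with the block.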

Other observations

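Upstream of glycogen, hexokinases, which make glucose 6-phosphate, rose, and its transporter into the endoplasmic reticulum fell. Among the genes of glucose 6-phosphate entry and exit, of 8 tested in Caco-2, CoCl2 gave 3 called higher and 1 lower, and OD 2 higher. In HT-29, 3 of 7 were called higher under CoCl2 and 1 under OD. Of all genes in Caco-2, 9.13% were called higher and 14.2% lower with CoCl2, and 4.43% higher with OD. The shares called higher in HT-29 were 17.4% and 9.5%. The hexokinase HK2 rose most, from 31.9 ± 1.15 CPM (SD, n = 3) in Caco-2 controls to 377 ± 3.23 with CoCl2 and 290.5 ± 21.4 with OD, and from 37.3 ± 1.75 in HT-29 controls to 858 ± 16.9 and 80.2 ± 7.12. Its log2 fold changes were 3.56, 3.18, 4.52 and 1.101 (FDR at most 7.23e-15), the last falling to 0.96 with scaling by total counts. HK1 rose with CoCl2 by 1.67 in the Caco-2 cells and by 1.51 in HT-29, and HKDC1 by 1.76 and 1.79. With scaling by total counts the HT-29 values were 0.88 for HK1, no longer called, and 1.16 for HKDC1. SLC37A4, that transporter, fell with CoCl2 in Caco-2, at -1.16 (SE 0.07, FDR = 1.91e-12) and was at -0.77 in HT-29, or -1.40 and called with scaling by total counts. The liver enzyme G6PC was at 0 to 14 counts per library.

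Of 6 other genes around UDP-glucose, CoCl2 gave 2 called higher and 2 lower in Caco-2, and 1 higher and 2 lower in HT-29. UGDH, which oxidises UDP-glucose to UDP-glucuronic acid, rose with CoCl2 by 1.60 (SE 0.08, FDR = 1.42e-14) in Caco-2 and 2.48 (SE 0.06, FDR = 2.65e-23) in HT-29. With OD it rose by 1.117 in HT-29, or 0.98 with scaling by total counts. The galactose genes GALT and GALK1 fell with CoCl2, at -1.16 and -1.16 for Caco-2 and -2.04 and -1.21 for HT-29 (-2.67 and -1.845 with scaling by total counts). UGCG, which makes glucosylceramide, rose with CoCl2 in Caco-2, by 1.096 (0.78 with scaling by total counts).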
